A study of Mus musculus with 28 samples.

Results

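A set of 10 genes of blood vessel endothelium and of the barrier between blood and nerve was followed in bulk poly-A RNA sequencing of developing mouse peripheral nerve, out of the 41605 gene identifiers counted. The members were given by name, and they are *Pecam1*, *Cdh5*, *Cldn5*, *Kdr*, *Flt1*, *Tek*, *Plvap*, *Mfsd2a*, *Abcb1a* and *Sox17*. All 10 passed the filter on low counts, which left 17700 genes for testing. There were 7 stages with 4 libraries each, 28 in all: 2 embryonic stages (E13.5 and E17.5, titled and called here E13 and E17), postnatal days 1, 5, 14 and 24 (P1, P5, P14 and P24) and the young adult at P60. All animals were wild type C57BL/6J mice that were neither treated nor perfused. Each E13 library pooled various nerves of 2 embryos, although the label names sciatic nerve at every stage, and each E17 library pooled the sciatic nerves of 2 embryos, while each postnatal library held the sciatic nerves of 1 mouse. From E17 on the epineurium and perineurium, the outer coats of the nerve, were stripped by hand to enrich for the endoneurium, the space of the axons, Schwann cells and capillaries. Whole libraries held 13899895 to 37662780 counts, and read counts of the 10 genes ran from 8 (*Abcb1a* at E13) to 4472 (*Mfsd2a*) per library. In 3 libraries (E13 replicates 1 and 4 and P1 replicate 1) the counts drifted with the GC content of genes more steeply than in the other 25.

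Vessels of the endoneurium are lined by endothelial cells joined by tight junctions, and with the perineurium these cells form the blood-nerve barrier. Barrier endothelium is known from the brain to carry few fenestrations and little vesicle transport, to express lipid and efflux transporters, and to keep these features under Wnt signalling from its surroundings. Growth and stabilisation of vessels are controlled by the VEGF receptors and by TIE2, the receptor for angiopoietins. Of the 10 genes, *Pecam1* (CD31) and *Cdh5* (VE-cadherin) encode adhesion proteins found on endothelium in general, *Kdr* (VEGFR2) and *Flt1* (VEGFR1) encode VEGF receptors, *Tek* encodes TIE2 and *Sox17* encodes a transcription factor best known from arterial endothelium. *Cldn5* encodes claudin-5, the main claudin of endothelial tight junctions, *Mfsd2a* a lysophospholipid transporter that restrains vesicle transport in brain capillaries, and *Abcb1a* the efflux pump P-glycoprotein. *Plvap* encodes the protein of the diaphragms that span fenestrae and caveolae, and is a marker of vessels without a tight barrier.

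The promoters of members with different courses are shown as background to the values that follow. RefSeq windows (GRCm38.p6) from 250 bases before to 50 bases after the start were at hand for 6 of the 10 genes, namely *Cldn5*, *Kdr*, *Flt1*, *Tek*, *Mfsd2a* and *Abcb1a*. The windows were searched on both strands for 3 short motifs: AGGAAG, a core bound by ETS factors, ACAAT, a core bound by SOX factors, and CTTTGA, a core bound by TCF/LEF factors of the Wnt pathway. In the windows shown no match of one motif overlapped a match of another. Of 32851 windows of 300 bases over all genes, 35.4% held the ETS core, 31% the SOX core and 16% the TCF/LEF core, so that each match is common. The windows of *Flt1* (chr5:147725962-147726261, minus strand), *Tek* (chr4:94739039-94739338, plus strand), *Mfsd2a* (chr4:122961139-122961438, minus strand) and *Cldn5* (chr16:18776597-18776896, plus strand) are written 5′ to 3′ along the gene, with motif matches in capitals.
Flt1: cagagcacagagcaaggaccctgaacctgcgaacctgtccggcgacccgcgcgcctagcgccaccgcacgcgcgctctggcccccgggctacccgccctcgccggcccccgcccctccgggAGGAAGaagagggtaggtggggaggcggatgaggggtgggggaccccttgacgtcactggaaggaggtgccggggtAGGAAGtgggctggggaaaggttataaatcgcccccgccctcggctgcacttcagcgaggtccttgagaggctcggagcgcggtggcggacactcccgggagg
Tek: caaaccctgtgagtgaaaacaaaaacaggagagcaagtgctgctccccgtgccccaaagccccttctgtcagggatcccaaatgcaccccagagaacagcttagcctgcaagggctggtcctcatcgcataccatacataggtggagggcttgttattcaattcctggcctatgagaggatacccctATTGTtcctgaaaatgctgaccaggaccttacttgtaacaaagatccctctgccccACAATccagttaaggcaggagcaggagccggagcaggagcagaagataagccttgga
Mfsd2a: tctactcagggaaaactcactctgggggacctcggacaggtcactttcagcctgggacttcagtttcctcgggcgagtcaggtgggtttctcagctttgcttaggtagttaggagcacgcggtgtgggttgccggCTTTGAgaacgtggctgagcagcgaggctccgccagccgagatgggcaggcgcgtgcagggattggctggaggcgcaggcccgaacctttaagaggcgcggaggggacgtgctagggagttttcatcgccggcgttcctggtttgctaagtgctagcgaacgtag
Cldn5: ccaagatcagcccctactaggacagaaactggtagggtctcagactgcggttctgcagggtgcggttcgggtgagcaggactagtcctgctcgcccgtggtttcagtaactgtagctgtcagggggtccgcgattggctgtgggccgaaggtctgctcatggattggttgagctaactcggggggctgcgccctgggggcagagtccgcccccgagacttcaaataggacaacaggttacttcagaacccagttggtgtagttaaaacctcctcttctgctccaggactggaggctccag
*Flt1* held 2 ETS cores, which begin 129 and 53 bases before the start. *Tek* held 2 SOX cores, beginning 63 and 7 bases before the start, the first of them as ATTGT on the opposite strand. *Mfsd2a* held 1 TCF/LEF core that begins 115 bases before the start. *Cldn5* and *Kdr* held none of the 3 letter strings in this window. The RefSeq window of *Abcb1a* (chr5:8566841-8567140, plus strand) held 2 ETS and 2 TCF/LEF cores. It is not printed, because it lies far upstream of the GENCODE start of the gene at position 8660077.

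Levels are given as CPM, which are counts set to a common total by TMM-scaled library sizes, as mean ± SD within a stage (n = 4 libraries). A gene was called in a comparison of stages when edgeR's quasi-likelihood test, adjusted by Benjamini-Hochberg over all 17700 genes, gave p under 0.05 and the fold change was at least 2. Over all 7 stages 9 of the 10 genes were called, against 70% of all genes, and over the 6 stages from E17 to P60 the same number was called, against 51.4%. In both tests *Cdh5* was the gene left out, because its stage means differed by at most 0.90 on the log2 scale. A change in a whole-nerve library can come from the number of cells of a type, from the RNA per cell or from expression in another cell type. These cannot be told apart here, and which cells made the RNA of each of the 10 genes was not tested.

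**Figure D1:**
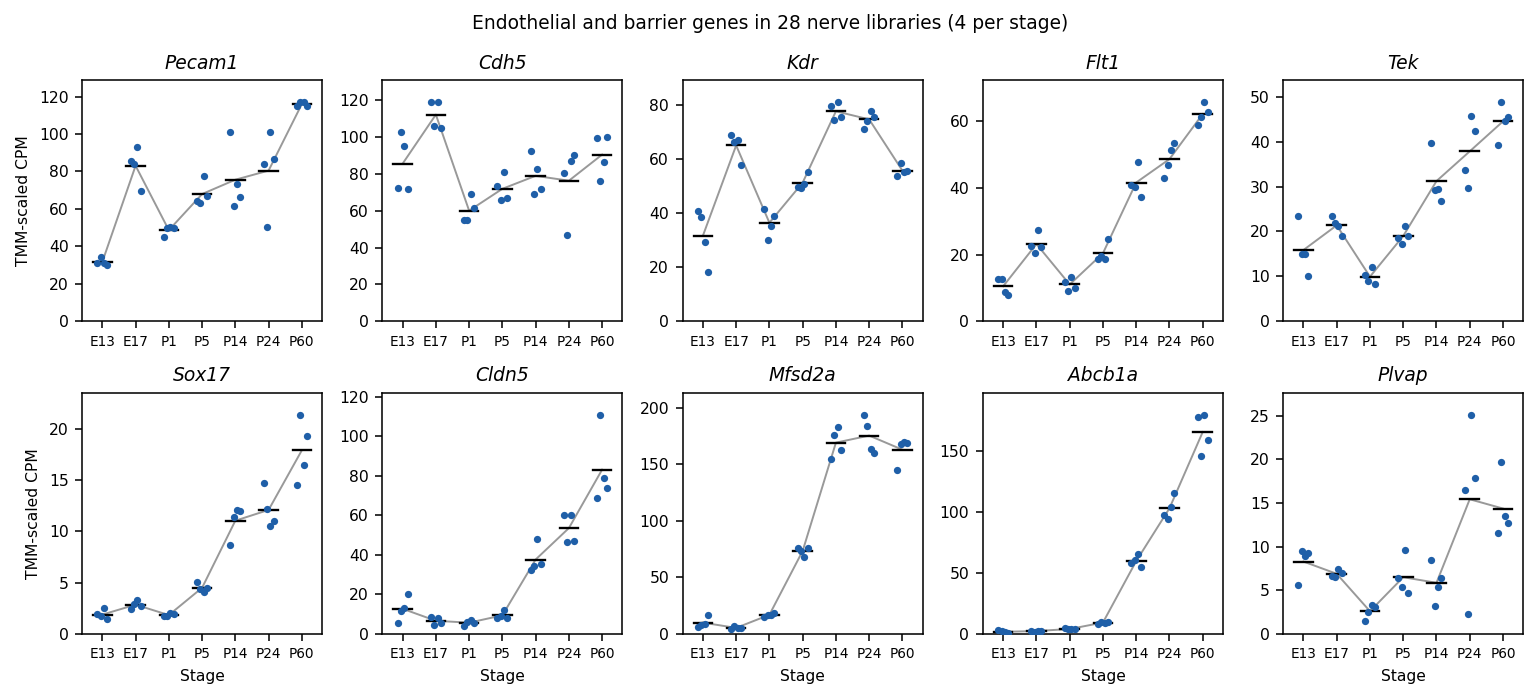
TMM-scaled CPM of each gene (vertical axes, from 0, each gene on its own scale) in the 28 libraries by stage, where points are libraries, bars are stage means and the grey line joins the means. Stage means of *Cdh5* run from 60.1 CPM at P1 to 112 CPM at E17, while *Abcb1a* goes from 1.63 at E13 to 166 at P60.

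The adult against the newborn nerve was the comparison with the most calls. From P1 to P60, 8 of the 10 genes rose at least 2-fold and none fell, against 20.3% of all genes called higher and 35.5% called in either direction. *Abcb1a* rose most, 41.9-fold, followed by *Cldn5* (14.7-fold), *Sox17* (9.78-fold), *Mfsd2a* (9.71-fold), *Flt1* (5.62-fold), *Plvap* (5.54-fold), *Tek* (4.50-fold) and *Pecam1* (2.38-fold). *Cdh5* was 1.51-fold higher and *Kdr* 1.53-fold higher, both below the fold minimum. The median log2 fold change of the 10 genes was 2.48, beside -0.02 over all genes tested. Against E17, 7 genes were higher at P60, beside 22.2% of genes called higher and 39.7% called in all, and the 3 others were *Pecam1*, *Cdh5* and *Kdr*. The call of *Plvap* in that comparison was lost without P60 replicate 2 (log2 fold change 0.87, adjusted p = 0.0828, edgeR). With library size only both *Tek* and *Plvap* lost that call, each with a log2 fold change of 0.74. From E17 to P60, 5 of 6 perineurial markers rose and 1 fell, and 5 of 6 epineurial markers rose. So did 4 of 8 pericyte and smooth muscle, 2 of 8 leukocyte and platelet and 4 of 6 Schwann cell markers. Of 5 lymphatic and 5 endoneurial fibroblast markers, 1 of each rose and 1 of each fell. The part of these markers was not tested.

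Of the pan-endothelial adhesion genes *Cdh5* changed less than *Pecam1*. *Cdh5* stood at 72.5, 103, 95.1 and 71.8 CPM in the 4 libraries at E13, at 119, 106, 119 and 105 CPM at E17 and at 54.8, 54.8, 68.9 and 61.8 CPM at P1. The 4 libraries at E17 lay above all other libraries of the gene, and those at P1 lay below the libraries of E13, E17 and P60. The fall from E17 to P1 was 1.87-fold (adjusted p = 7.2e-05, edgeR), below the fold minimum. With library size only this fall was called (log2 fold change -1.02). *Cdh5* then stood between 47.1 and 100 CPM in the libraries from P5 to P60. In the order of levels below E17 (P60, E13, P14, P24, P5, P1) each stage overlapped with its neighbour. *Pecam1* stood at 30.2 to 34.6 CPM at E13 and rose 2.62-fold by E17 (log2 fold change 1.39 ± 0.16 SE, adjusted p = 1.6e-08, edgeR). At P1 it stood at 45.1, 49.9, 50.1 and 49.6 CPM and at P60 at 115, 117, 117 and 115 CPM, the highest stage of the gene, with no library of another stage above 101. Stage means of E17, P5, P14 and P24 lay between 68.0 and 83.1 CPM and their libraries overlapped along that order. P24 replicate 2 was the lowest of its stage for both genes, at 50.2 CPM for *Pecam1* and 47.1 CPM for *Cdh5*, while its *Kdr* level of 74.3 CPM lay among the others.

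The receptor genes were lower at P1 than at E17, *Flt1* and *Tek* by more than 2-fold and *Kdr* by 1.78-fold (adjusted p = 9.0e-05, edgeR), and by P60 *Flt1* and *Tek* had risen above their E17 level. *Kdr* stood at 18.1 to 40.7 CPM at E13 and 58.1 to 69.0 CPM at E17, a 2.06-fold rise (adjusted p = 1.2e-06, edgeR). This rise dropped below 2-fold without E13 replicate 3 or 4 (0.84 on the log2 scale without the latter). It also did so without the 3 libraries of steep GC trend (0.95). The *Kdr* libraries at P1 held 30.2 to 41.6 CPM, those at P14 74.7 to 81.2 CPM, those at P24 71.2 to 78.0 CPM and those at P60 53.7 to 58.5 CPM. The P60 libraries of *Kdr* thus lay below all of P14 and P24, although the step from P24 to P60 did not pass (log2 fold change -0.42 ± 0.15 SE, adjusted p = 0.0527). *Flt1*, whose product binds VEGF with little signalling and occurs also as a soluble form, stood at 20.5 to 27.4 CPM at E17, at 9.04 to 13.2 CPM at P1 and at 58.9 to 65.8 CPM at P60. Its 3 calls between neighbouring stages were close to the 2-fold minimum, with a 2.20-fold rise by E17, a 2.10-fold fall by P1 and a 2.04-fold rise from P5 to P14. Each of the last 2 fell just below that minimum without single libraries (E17 replicate 3 or P1 replicate 2, and P5 replicate 1 or 3 or P14 replicate 3), to no less than 0.95 on the log2 scale, and the rise from P5 to P14 was 0.86 with library size only. *Tek* fell 2.16-fold from E17 to P1, from 18.9 to 23.5 CPM down to 8.41 to 12.0 CPM, and at P60 held 39.2, 48.8, 44.5 and 45.6 CPM. No later step of *Tek* between neighbouring stages was called, though P60 stood 4.50-fold above P1 (adjusted p = 1.3e-10, edgeR). In the order of levels, P24 and P60 overlapped for *Tek* and did not for *Flt1*.

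*Sox17* stood at 1.71, 1.71, 2.01 and 1.89 CPM at P1 and at 14.5, 21.4, 16.5 and 19.3 CPM at P60. It rose 2.45-fold from P1 to P5 (adjusted p = 3.8e-06) and 2.46-fold from P5 to P14 (adjusted p = 7.1e-07, edgeR). The 4 libraries of each of these stages lay apart from those of the next. From P14 on neighbouring stages overlapped, and at E13, E17 and P1 the libraries held 1.42 to 3.30 CPM.

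The barrier genes were at their lowest before or around birth. *Mfsd2a* was the first of them to be called. It stood at 4.07, 7.08, 5.0 and 4.78 CPM at E17, at 15.2, 16.7, 16.7 and 18.7 CPM at P1 and at 76.2, 73.6, 67.8 and 75.8 CPM at P5. No library of these 3 stages overlapped with another stage of the 3, and the steps were 3.20-fold (adjusted p = 1.3e-07) and 4.35-fold (adjusted p = 2.3e-09, edgeR). After a further 2.30-fold rise to P14 its libraries held 145 to 194 CPM at P14, P24 and P60, with overlap between these 3 stages. At P14 *Mfsd2a* had thus covered 101% of its log2 distance from E17 to P60, and at P5 76.8%.

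The libraries of *Abcb1a* did not overlap between any neighbouring stages from E17 on. Its 4 libraries held 2.69, 1.85, 2.17 and 2.45 CPM at E17, 4.48, 3.58, 3.79 and 3.91 CPM at P1 and 8.38, 9.65, 9.11 and 9.84 CPM at P5. They held 58.3, 60.3, 65.8 and 54.5 CPM at P14, 98.0, 94.4, 104 and 116 CPM at P24 and 178, 146, 180 and 159 CPM at P60. The step from P5 to P14 (6.45-fold, log2 fold change 2.69 ± 0.23 SE, adjusted p = 6.8e-10, edgeR) was the largest of any of the 10 genes between neighbouring stages. *Abcb1a* had covered 32.3% of its log2 distance from E17 to P60 by P5 and 76.0% by P14. Its paralog *Abcb1b* was 2.58 on the log2 scale higher at P60 than at P1 (1.68 against 10.1 CPM), and how reads shared by both copies were counted is not given in the sources used here.

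*Cldn5* was the last of the 3 to be called between neighbouring stages. It stood at 5.4 to 20.4 CPM at E13, at 4.49 to 8.41 CPM at E17, at 4.16 to 6.85 CPM at P1 and at 7.78 to 12.3 CPM at P5. It then rose 4.03-fold, to 32.1, 34.6, 48.2 and 35.6 CPM at P14 (log2 fold change 2.01 ± 0.27 SE, adjusted p = 1.8e-06, edgeR), and its libraries at P60 held 68.6, 111, 79.0 and 74.1 CPM. All P14 libraries lay above all P5 libraries. By P5 *Cldn5* had covered 14.4% of its log2 distance from E17 to P60 and by P14 69.0%. The E13 values spread over a wide range, and the 2 libraries at its ends (5.4 and 20.4 CPM, replicates 1 and 4) were those with a steep GC trend. The part of that trend in this spread was not tested.

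*Plvap*, the marker of vessels without a tight barrier, was lowest at P1 and higher at P60 than at P1. It stood at 6.55 to 7.37 CPM at E17, fell 2.66-fold to 1.49, 2.46, 3.32 and 3.07 CPM at P1 and rose 2.50-fold to 4.63 to 9.58 CPM at P5. At P60 its libraries held 11.5, 19.7, 13.5 and 12.7 CPM, above every library before P24. At P24 they held 16.5, 2.25, 25.1 and 17.8 CPM, a spread that took in the P14 libraries, and the call from P14 to P24 (2.64-fold, adjusted p = 0.0378, edgeR) rests on libraries that overlap. The library at 2.25 CPM, replicate 2, also had the lowest sums of P24 for perineurial markers (526 CPM, against 818 to 843 in the others), for epineurial markers (183 against 302 to 409) and for pericyte and smooth muscle markers (491 against 665 to 750). It was lowest as well for the other pan-endothelial genes (837 against 933 to 1003) and for leukocyte and platelet markers (104 against 147 to 158). The part of this in the *Plvap* value was not tested. Without this library the step from P14 to P24 was 1.76 on the log2 scale. The call was lost without P24 replicate 1, 3 or 4 or P14 replicate 2, 3 or 4 (adjusted p = 0.082 to 0.212), the smallest value being 1.05 without P24 replicate 3. It was also lost with the compared stages only (adjusted p = 0.249, edgeR) and without the low count filter (0.0609). The rise from P1 to P5 was no longer called without P1 replicate 1 (adjusted p = 0.0971), P1 replicate 2 (0.0646) or P5 replicate 3 (0.112), nor with library size only (0.0511), with limma-voom (0.0956) or without the 3 libraries of steep GC trend (0.105). Without those 3 libraries the fall from E17 to P1 was also no longer called (log2 fold change -1.22, adjusted p = 0.0579, edgeR). *Plvap* shares its locus with *Gtpbp3* on the opposite strand, a gene with 7686 counts in all against 4952 for *Plvap*, and since the use of strand in counting is not stated, its level is uncertain. *Gtpbp3* itself held stage means of 11.7 to 13.4 CPM along the timeline and 11.7 to 15.5 CPM in the P24 libraries.

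Read step by step, the 10 genes had 3, 4, 4, 5, 1 and 0 calls. From E13 to E17, 3 genes rose (*Pecam1*, *Kdr* and *Flt1*), against 14.2% of all genes called higher and 35.5% called in all. With library size only *Pecam1* was the single gene called higher (1.14 on the log2 scale), *Kdr* (0.78) and *Flt1* (0.88) were not called, and *Cldn5* (-1.16) and *Mfsd2a* (-1.14) were called lower. Those same 2 genes were also called lower without E13 replicate 1 (-1.19 and -1.08), beside the 3 rises. *Cldn5* alone of the 2 was called lower with limma-voom (-1.04) and without E17 replicate 1 (-1.07) or 3 (-1.06). *Mfsd2a* alone of the 2 was called lower without E13 replicate 2 (-1.02) or E17 replicate 2 (-1.1). In this step 6 of 6 Schwann cell markers (sum of 192 to 378 CPM at E13 and 2908 to 3271 CPM at E17), 3 of 6 perineurial markers (39.9 to 75 and 247 to 285 CPM) and 3 of 6 epineurial markers (40.1 to 54.6 and 127 to 156 CPM) rose, and 6 of 8 leukocyte and platelet markers fell (147 to 285 and 71 to 78.2 CPM). Their part was not tested, and the stage cannot be told apart from the change of sample, since the E13 nerves were various nerves that had not been stripped. Around birth, from E17 to P1, *Flt1*, *Tek* and *Plvap* fell and *Mfsd2a* rose, against 5.41% and 6.31% of all genes and 11.7% in both directions. With no fold minimum, 7 of the 10 genes were lower at P1 than at E17 at adjusted p under 0.05, against 14.4% of all genes, and *Mfsd2a* and *Abcb1a* were higher. Over the same interval 2 of 6 perineurial markers and 1 of 6 epineurial markers fell and none rose, with median log2 fold changes of -0.68 and -0.62, beside -0.80 for the 10 genes. In the opposite direction 4 of 6 Schwann cell markers rose (sum of 2908 to 3271 CPM at E17 and 9262 to 17970 CPM at P1), with a median of 2.04, and the part of these markers was not tested. From P1 to P5 *Plvap*, *Mfsd2a*, *Abcb1a* and *Sox17* rose, against 4.05% of genes called higher and 5.84% called in all. In this step 3 of 8 pericyte and smooth muscle markers (sum of 273 to 342 CPM at P1 and 409 to 526 CPM at P5), 3 of 8 leukocyte and platelet markers (63.6 to 80.1 and 129 to 150 CPM), 2 of 6 Schwann cell markers (9262 to 17970 and 35165 to 41460 CPM) and 1 of 6 epineurial markers (88.1 to 133 and 110 to 146 CPM) rose. Of 5 lymphatic markers 2 rose. None of these lists had a fall, and their part was not tested. From P5 to P14 *Cldn5*, *Flt1*, *Mfsd2a*, *Abcb1a* and *Sox17* rose, against 7.11% and 12%. In the same step 4 of 6 perineurial markers rose (their sum went from 175 to 221 CPM to 471 to 580 CPM) and 5 of 6 epineurial markers rose (110 to 146 CPM to 211 to 262 CPM), and none of either list fell. Of the pericyte and smooth muscle, leukocyte and platelet and Schwann cell lists 1 marker each rose and none fell. Of the lymphatic and endoneurial fibroblast lists 1 marker each fell and none rose. The part of these markers in the rises of the 5 genes was not tested. From P14 to P24 *Plvap* alone was called, against 1.51% and 2.65% of all genes. From P24 to P60 none of the 10 was called by edgeR, by DESeq2 or by limma-voom, against 5.96% of all genes. At unadjusted p under 0.05 there were 6 genes in that last step, against 27.7% of all genes, and *Pecam1*, *Abcb1a* and *Sox17* were higher at adjusted p under 0.05 by less than 2-fold, against 6.84% of genes higher by that rule.

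**Figure D2:**
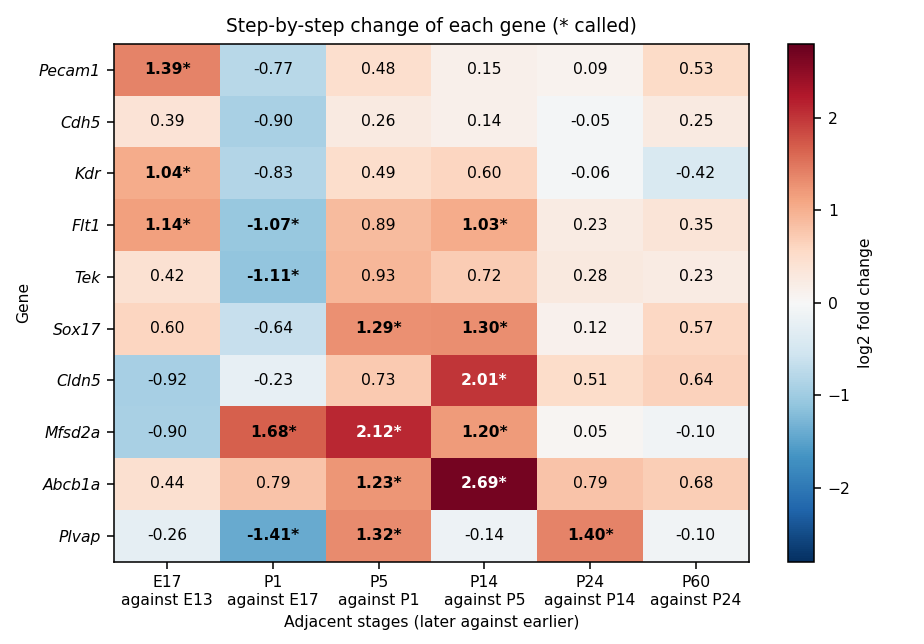
Log2 fold change of each gene (rows) between neighbouring stages (columns, later against earlier), from edgeR, with red for higher and blue for lower. An asterisk marks a call, and the strongest entries are *Abcb1a* from P5 to P14 (2.69) and *Mfsd2a* from P1 to P5 (2.12).

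Levels set against *Cdh5* in the same library compare the genes with one another and do not move with the scaling of libraries. The scale is log2 CPM of a gene minus log2 CPM of *Cdh5*. On this scale 8 of 9 genes were higher at P60 than at P1 in every library of 4 against 4. Each of the 8 gave p = 0.029 (two-sided exact permutation test), the smallest this design allows, and 0.032 after adjustment over the 9 tests. *Cdh5* had the smallest log2 fold change of the set from P1 to P60 (0.59), followed by *Kdr* (0.61) and *Pecam1* (1.25). With the least risen gene as reference, positive differences of the other genes restate those fold changes and are no separate evidence of a rise. *Abcb1a* went from -3.90 ± 0.23 at P1 to 0.87 ± 0.17 at P60 (SD, n = 4), a difference of 4.77. *Cldn5* differed by 3.27, *Mfsd2a* by 2.68, *Sox17* by 2.63, *Flt1* by 1.91, *Plvap* by 1.87, *Tek* by 1.57 and *Pecam1* by 0.66. *Kdr* held -0.72 ± 0.25 at P1 and -0.69 ± 0.23 at P60, a difference of 0.03 that was within the spread of libraries (exact permutation test, p = 0.771). *Kdr* came closest to *Cdh5* at P14 (-0.01 ± 0.15) and P24 (0.02 ± 0.43). The wide spread at P24 includes replicate 2, in which *Cdh5* was low. Set against *Pecam1* in place of *Cdh5*, all 9 genes compared differed, with *Kdr* at -0.63. The differences were smaller against the mean of the 20 other pan-endothelial genes, at 3.75 for *Abcb1a*, 2.24 for *Cldn5*, 1.66 for *Mfsd2a*, 1.61 for *Sox17*, 0.88 for *Flt1*, 0.85 for *Plvap* and 0.55 for *Tek*. Against that mean *Pecam1* turned to -0.36 and *Kdr* stood at -0.99, so both were lower at P60 than at P1 (two-sided exact permutation test, adjusted p = 0.029 for each).

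**Figure D3:**
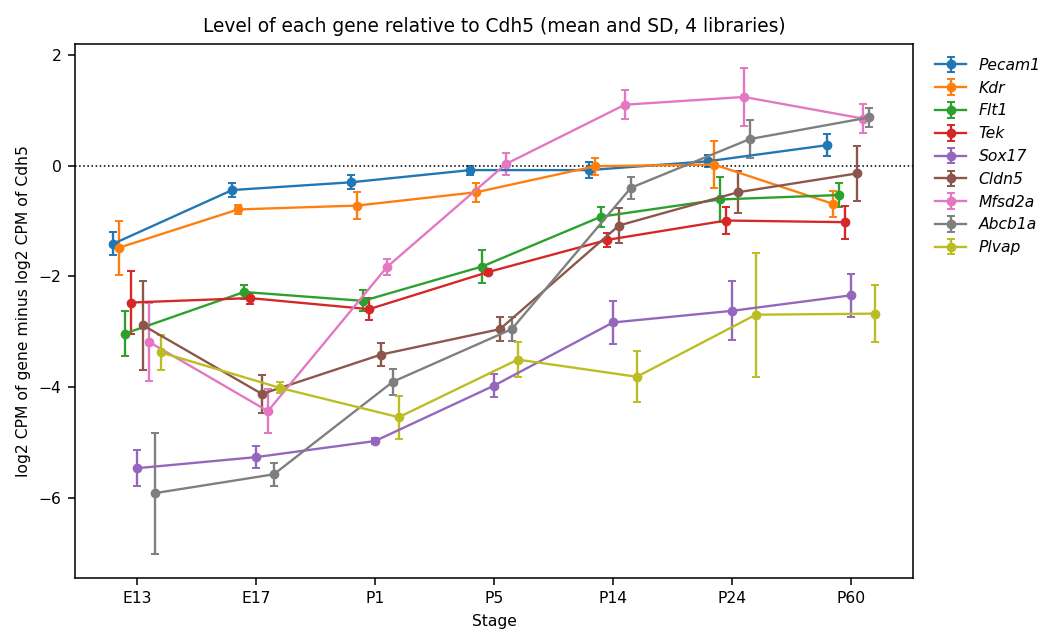
Log2 CPM of each of 9 genes minus log2 CPM of *Cdh5* (vertical axis) by stage, as mean and SD of 4 libraries, with the dotted line at the level of *Cdh5*. *Mfsd2a* and *Abcb1a* start far below *Cdh5* at E17 (-4.43 and -5.57) and end above it at P60 (0.85 and 0.87), whereas *Kdr* at P60 (-0.69) is back near its value at P1 (-0.72).

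Per kilobase of exon, the order of the 10 genes was rearranged. At P1 *Cdh5* led with 14.3 ± 1.60 CPM per kilobase, followed by *Pecam1* (7.82 ± 0.382) and *Mfsd2a* (7.47 ± 0.634), and *Flt1* (0.818 ± 0.137), *Abcb1a* (0.719 ± 0.0704) and *Sox17* (0.383 ± 0.0304) were lowest. At P60 *Mfsd2a* led with 72.5 ± 5.34 CPM per kilobase, followed by *Cldn5* (58.7 ± 13.3), *Abcb1a* (30.3 ± 2.93), *Cdh5* (21.6 ± 2.74) and *Pecam1* (18.6 ± 0.208). These values use the summed length of all annotated exons, so that a gene with short and long transcripts such as *Flt1* is understated.

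Genes with a course like that of a member were sought among 11305 tested genes whose mean reached 5 CPM, by the root mean square difference of mean-centred log2 CPM over the 28 libraries. The value of each member's own spread around its mean is given beside the 3 nearest genes. For *Pecam1* these were *Frmd6*, *Clic4* and *Scpep1* (0.26 to 0.28, beside 0.59) and for *Cdh5* *Ets2*, *Rgl1* and *Extl3* (0.14 to 0.23, beside 0.33). For *Kdr* they were *Ripk1*, *Invs* and *Pde5a* (0.22 to 0.23, beside 0.51), for *Flt1* *Setd7*, *Zbtb4* and *Lama3* (0.27 to 0.32, beside 0.96) and for *Tek* *Ctdspl*, *Letm2* and *Cd38* (0.29 to 0.31, beside 0.74). *Fam57a*, *Slc41a2* and *Epas1* were nearest to *Sox17* (0.34 to 0.36, beside 1.25), and *Itgb5*, *Spsb1* and *Sqor* to *Cldn5* (0.40 to 0.46, beside 1.49). Nearest to *Mfsd2a* were *Ecscr*, *Vwf* and *H2-DMa* (0.42 to 0.48, beside 2.02), of which the first pair are endothelial genes. *Cfap100*, *Myo1d* and *Cav2* were nearest to *Abcb1a* (0.57 to 0.58, beside 2.61), and *Cmklr1*, *Npr1* and *Ang* to *Plvap* (0.52 to 0.53, beside 0.96). Among the 10 genes themselves *Flt1* and *Tek* were the closest pair (0.38), followed by *Pecam1* and *Kdr* (0.43).

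Related gene lists, chosen by known function, give the setting of the 10 genes from P1 to P60. The same 35.5% of all genes called (20.3% higher) stand beside their counts, and counts that differ under scaling by library size alone are given with them. Of 20 other pan-endothelial genes 14 rose and none fell, with a median log2 fold change of 1.65. The largest rises were *Vwf*, the von Willebrand factor of endothelial storage granules (18.7 ± 4.47 to 259 ± 30.7 CPM, 13.8-fold), and *Adgrl4* (6.73-fold), whereas *Cd93* stood at 56.6 and 56.4 CPM. The summed level of this list went from 276 to 321 CPM in the P1 libraries to 1032 to 1235 CPM at P60.

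Among 10 VEGF and angiopoietin ligands and co-receptors 5 rose (4 with library size only) and 3 fell. *Pgf*, a ligand of FLT1, rose 3.46-fold and *Vegfd* 3.18-fold, while the co-receptors *Nrp1* and *Nrp2* fell 2.83-fold and 2.35-fold and *Angpt2*, a TIE2 ligand made by endothelium under remodelling, went from 82.8 to 36.0 CPM (adjusted p = 2.8e-09, edgeR). *Vegfa* did not pass the test (12.8 against 10.7 CPM, adjusted p = 0.22). NRP1 and NRP2 are also semaphorin receptors of axons and glia.

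Of 11 junction genes 9 rose (8 with library size only) and none fell, led by *Ocln*, which encodes occludin (21.1-fold, from 0.377 ± 0.115 to 8.07 ± 3.12 CPM), and *Lsr*, of tricellular junctions (9-fold). Of 11 transporters and efflux pumps 7 rose and none fell (1 fell, *Slc22a8*, with library size only). *Slco1a4*, an organic anion transporter of brain capillaries, went from 0.528 ± 0.318 to 111 ± 9.96 CPM (211-fold), and *Slco1c1*, a thyroid hormone transporter, rose 32.0-fold. *Slc2a1*, the glucose transporter GLUT1, rose from 23 to 256 CPM. Perineurial cells also make GLUT1 and claudin-1, and both genes stand in the perineurial list too.

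Of 8 caveolae and transcytosis genes 7 rose, led by *Cav2* (23.6-fold) and *Cavin2* (6.77-fold). These genes are known from many cell types of the nerve and are not restricted to endothelium. Of 15 genes of Wnt/beta-catenin barrier signalling 6 rose and none fell (1 fell, *Adgra2*, with library size only), with a median of 0.67. *Lef1*, a transcription factor of the pathway, rose 9.58-fold and *Apcdd1*, a Wnt target and inhibitor, 7.52-fold. The receptor gene *Fzd4* rose from 20.3 to 56.5 CPM and its ligand *Ndp* (norrin) from 7.55 to 19.1 CPM, whereas *Wnt7a* was near 0 at both stages and *Axin2* stood at 11.1 and 19.4 CPM, below the fold minimum.

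Genes of vessel types were mixed. Of 10 arterial genes 3 rose (2 with library size only) and 2 fell. *Bmx* rose 42.8-fold and *Notch4* 2.66-fold, while *Unc5b* fell 3.41-fold and *Notch1* 2.31-fold, and *Notch1* is active in many cell types besides endothelium. Of 9 venous and capillary genes 4 rose and 1 fell, with *Rgcc* up 12.6-fold, *Car4* up 11.2-fold and *Aplnr* down 2.35-fold. *Ackr1*, a venule gene, rose from 7.32 to 70.6 CPM.

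Markers of other cells moved over the same interval, and their part in the rises of the 10 genes was not tested. The summed level of 6 perineurial markers went from 151 to 229 CPM at P1 to 1008 to 1459 CPM at P60, with 5 up, led by *Msln* (158-fold) and *Lypd2* (25.3-fold), and 1 down, in nerves from which this coat had been stripped. Of 6 epineurial markers 5 rose, led by *Ly6c1* (22.2-fold), which capillary endothelium is also known to make, and *Pcolce2* (10.5-fold), and their sum went from 88.1 to 133 CPM to 230 to 294 CPM. Of 8 pericyte and smooth muscle markers 5 rose (4 with library size only), led by *Myh11* (23.3-fold) and *Acta2* (17.8-fold), with a sum of 273 to 342 CPM at P1 and 692 to 757 CPM at P60. The sum of 8 leukocyte and platelet markers went from 63.6 to 80.1 CPM to 110 to 141 CPM with 2 up, *Itga2b* and *Pf4*. Both are known from platelets and megakaryocytes, but *Ppbp*, another platelet gene of the list, was not called (0.177 CPM at P1 and 0.12 CPM at P60). The nerves had not been perfused, and a part of blood in these values was not tested. *Cd3e* and *Gp9* stayed below the count filter. Of 5 lymphatic markers tested 3 rose, namely *Lyve1* (9.19-fold, also a gene of macrophages), *Flt4* (2.10-fold) and *Pdpn*, of which *Lyve1* alone rose with library size only. *Prox1*, the defining lymphatic factor, fell from 1.46 to 0.135 CPM, and *Ccl21a* was at 0 counts. Of 5 endoneurial fibroblast markers none rose and 1 fell, *Col2a1* (13-fold). Of 6 Schwann cell markers 3 rose (2 with library size only), with *S100b* up 8.51-fold and *Mbp* 3.66-fold, and their sum went from 9262 to 17970 CPM at P1 to 34179 to 46199 CPM at P60.

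**Figure D4:**
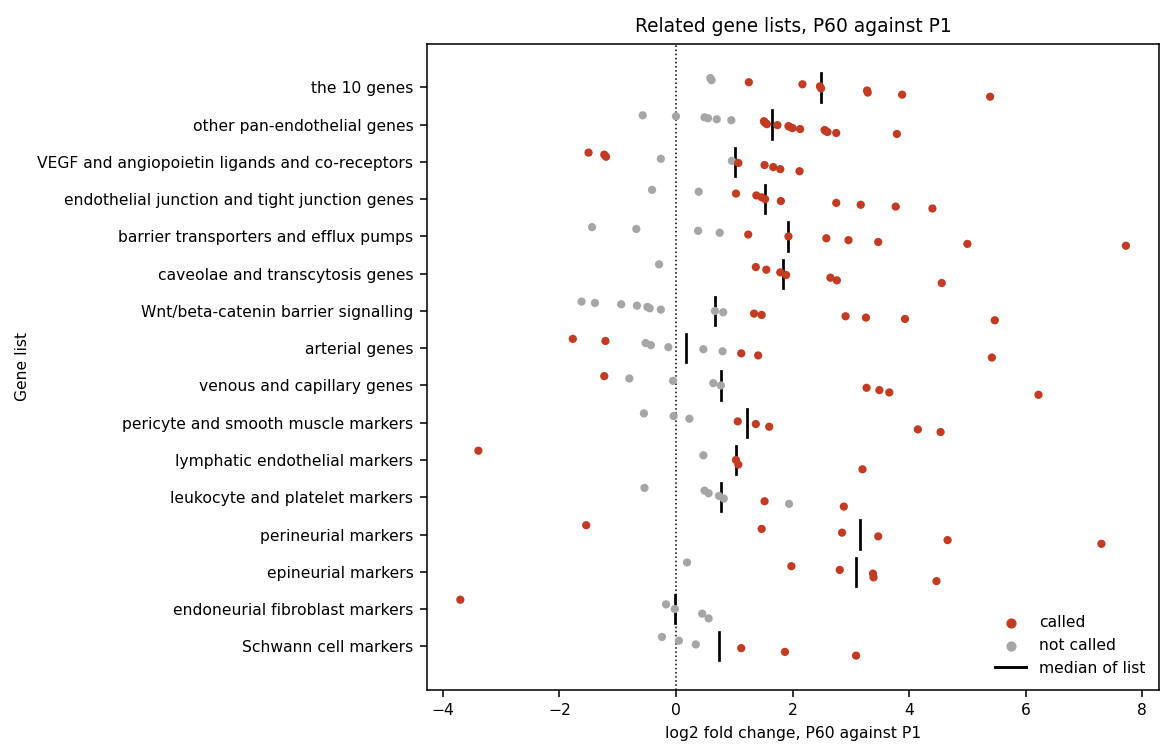
Log2 fold change from P1 to P60 (horizontal axis) of each tested gene in 16 lists, with red points for called genes, grey points for others and a bar at the median of each list. The 10 genes have a median of 2.48 and lie wholly above 0, as *Cdh5* (0.59) and *Kdr* (0.61) mark their lower end, while the endoneurial fibroblast list has a median of -0.02.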

How the data were processed

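Bulk poly-A RNA of 28 mouse nerve libraries was measured, with groups (stages) taken from the titles. The deposited values are whole counts of reads for each gene, with no scaling by the authors. They prepared TruSeq stranded libraries, read them single-end (HiSeq4000), aligned with STAR 2.6.1c and counted with featureCounts. The submitters' processing notes name the build GRCm38.p5, while the methods name a human build. Whether counting used strand is not given in the sources used here, nor is the treatment of reads that align to several places. Of 41605 mouse Ensembl identifiers 41519 were matched to GENCODE M21 (GRCm38) for symbols, exon length and GC content. Each stage held males and females, but the labels do not give the sex of single libraries, so sex was not adjusted for. No pair of libraries held identical counts, and p-values measure the spread between separate animals or pools. All columns of the table were used.

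Genes were filtered with filterByExpr and scaled by TMM, and 1 quasi-likelihood fit over all 28 libraries was made in edgeR 4.0.16 (R 4.3.3, robust estimation, stage as the only term). A pair of stages was called at adjusted p under 0.05 and at least 2-fold. The tests over all stages asked for adjusted p under 0.05 and stage means at least 2-fold apart. The fit was tested on simulated data. Ratios to *Cdh5* used log2 CPM with a prior count of 2 and two-sided exact permutation tests (scipy 1.17.1). Promoter windows came from RefSeq (GRCm38.p6). The alternatives were other scalings, filters, tools (DESeq2 1.42.0, limma-voom in limma 3.58.1), fold minimums, GC correction, the replicate number as a block, fewer stages and each library left out. The members and lists were chosen with earlier results of these data known. Of each list the text names the 2 largest rises and 2 largest falls among called genes of at least 5 CPM from P1 to P60. *Cd93*, *Angpt2*, *Vegfa*, *Slc2a1*, *Slc22a8*, *Abcb1b*, *Fzd4*, *Ndp*, *Wnt7a*, *Axin2*, *Adgra2*, *Ackr1*, *Prox1*, *Pdpn*, *Ppbp* and *Gtpbp3* were chosen after their values were seen.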

Additional observations from a re-analysis of the deposited data

Results flagged for a closer look

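In 4 of the 70 groups of 4 libraries (10 genes at 7 stages), 1 library stood apart from the other 3 by more than the 95% critical value of Dixon's test, and chance gives about 1 in 20. *Pecam1* at P1 was 45.1 CPM in replicate 1 and 49.6 to 50.1 in the others, and *Plvap* at E13 was 5.56 CPM in replicate 1 and 8.88 to 9.45 in the others. Both of these are libraries with a steep GC trend. *Flt1* at P5 was 24.7 CPM in replicate 4 and 18.7 to 19.5 in the others. *Mfsd2a* at P60 was 145 CPM in replicate 1 and 168 to 170 in the others.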

How the results depend on the processing

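From P1 to P60 each of the 8 calls held under all 22 alternatives. The call of *Kdr* over all stages was lost with library size only, where *Cdh5* was called instead. Counts of called genes that moved by more than 1.5 times follow. With no fold minimum, 8 were called from E13 to E17, 9 from E17 to P1, 8 from P1 to P5, 2 between P14 and P24 and 3 between P24 and P60, against 62.2%, 29.5%, 17.6%, 5.45% and 16.1% of all genes. With a 1.5-fold minimum these counts were 6, 9, 6, 2 and 1, against 50.3%, 21.5%, 11.9%, 4.37% and 10.7%. From P14 to P24 the single call, *Plvap*, became 0 without the low count filter and with the compared stages only. Leaving out 1 library gave 2 to 5 calls from E13 to E17, where 5 came without E13 replicate 1 (*Cldn5* and *Mfsd2a* lower besides), and 3 to 4 from E17 to P1, 3 to 5 from P1 to P5, 4 to 5 from P5 to P14, 0 to 1 from P14 to P24 and 6 to 7 from E17 to P60.

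With the replicate number as a block, the *Plvap* call from P14 to P24 was lost (0 called, adjusted p = 0.055) and no other count changed. Deviations of same-numbered libraries correlated at -0.20 to 0.57 (median 0.08, 33 of 84 pairs over 0.1), beside a median of -0.04 for differently numbered pairs. Of 28 libraries 17 correlated best with their own number. The main fit did not use the numbers to pair libraries, and these values do not decide whether the numbers do. The block together with GC correction, and the DESeq2 likelihood ratio test over all stages, were added after seeing the data and moved no count.

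Signs of fold changes between stages turned only where they were not called. With library size only, *Pecam1* (-0.02) and *Cdh5* (-0.04) turned from P5 to P14, *Cdh5* (0.02) and *Kdr* (0.01) from P14 to P24 and *Mfsd2a* (0.02) from P24 to P60. *Cdh5* was 0.07 with limma-voom from P14 to P24, and *Plvap* was 0.01 with the block from P24 to P60. With 1 library left out, *Pecam1* ran from -0.02 to 0.24 and *Plvap* from -0.37 to 0.10 from P5 to P14, *Pecam1* from -0.04 to 0.26 and *Cdh5* from -0.14 to 0.12 between P14 and P24, and *Plvap* from -0.47 to 0.24 between P24 and P60. The difference of *Kdr* relative to *Cdh5* ran from -0.07 to 0.14 with 1 library left out. It was -0.63 relative to *Pecam1* and -0.99 relative to the mean of other pan-endothelial genes, to which *Pecam1*, whose difference from *Cdh5* had passed at 0.66, turned to -0.36. An exact permutation test of the ratio in 3 against 4 libraries cannot go below p = 0.057, so no calls were counted there. The causes were not tested.

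With library size only, all tested genes had a median log2 fold change of -0.33 from E13 to E17 and -0.22 from P1 to P60, beside -0.08 and -0.02 with TMM. The share of calls that were higher went from 40.1% to 28.7%, from 53.8% to 43.0% (E17 to P1), from 69.4% to 44.7% (P1 to P5), from 59.1% to 46.2% (P5 to P14), from 57.2% to 47.5% (P1 to P60) and from 56% to 42% (E17 to P60). It went up from 57.1% to 64.9% between P14 and P24 and from 42.7% to 52.5% between P24 and P60. Depth limits the lowest levels, such as *Abcb1a* at E13 with as few as 8 counts.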
